A study of Mus musculus with 14 samples.

Results

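OCP4 and OCP1 were sorted populations of CD73+ cells from the embryonic mouse limb, and they differed in whether the cells also carried Thy1 on their surface. OCP4 was sorted as CD9+ CD73+ Thy1+ (4 arrays) and OCP1 as CD9+ CD73+ Thy1- (3 arrays). These 7 arrays were chosen by their titles from the 14 arrays of the series. The other 7 arrays held CD9+ CD73- cells, sorted as Thy1- (OCP2, 3 arrays) or Thy1+ (OCP3, 4 arrays), and served for comparison. All 4 groups came from C57BL/6 embryos at embryonic day 16.5, and the labels name no transgene, knockout or drug. Cells were freed from dissected limbs with collagenase and dispase, and after a lysis step they were stained with antibodies and sorted by flow cytometry. Biotin-labelled cRNA was hybridised to Affymetrix Mouse Gene 1.0 ST arrays, on which each probe set reads 1 transcript or part of it. Whether the replicates of a group were separate embryos, litters or sorts is not said in the labels. The p-values therefore reflect only how far these arrays differ within a group, and that spread could be technical.

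CD73, encoded by Nt5e, is a surface enzyme that turns AMP into adenosine, and Thy1 is a small glycolipid-anchored surface protein of fibroblasts, T cells and neurons. CD9 is a tetraspanin found on many cell types. The limb skeleton is laid down as cartilage: chondrocytes deposit a matrix of type II collagen and aggrecan under the transcription factor Sox9, then enlarge, secrete type X collagen and are replaced by bone. Tendon, joint, perichondrium, dermis and other connective tissues form around it from related mesenchymal cells, and Wnt signalling through beta-catenin restrains the cartilage fate in such cells.

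The values below are log2 intensities, 1 probe set per gene symbol, and a difference is always OCP4 minus OCP1. Of 21734 genes, 5706 (26.3%) passed limma's moderated test at a Benjamini-Hochberg adjusted p under 0.05. In OCP4, 3005 genes (13.8%) were higher and 2701 (12.4%) were lower. Among them, 213 (0.98%) were at least 2-fold higher and 297 (1.37%) at least 2-fold lower. The median difference over all genes was 0.01. Arrays of 1 group correlated at 0.997 to 0.998 over all genes, and arrays of different groups at 0.985 to 0.990. The leading principal component held 73.8% of the variance of the 7 arrays and separated the groups. On that axis OCP4 replicate 3 lay closest to OCP1.

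Thy1 itself was the gene with the largest difference in either direction. Its log2 intensity was 9.42, 9.20 and 9.35 on the OCP1 arrays and 13.12, 13.20, 13.27 and 13.26 on the OCP4 arrays. The 2 groups did not overlap, and the difference was 3.89 ± 0.13 (SE), or 14.8-fold, with an adjusted p of 1.22e-10. The RNA of the gated protein thus ran with the labels on all 7 arrays. Nt5e, although both populations were gated as CD73+, read 12.22, 12.17 and 12.47 in OCP1 and 13.17, 12.98, 13.24 and 13.37 in OCP4. Every OCP4 array lay above every OCP1 array, by 1.87-fold on average (adjusted p = 0.00170). Cd9, shared by both gates, was 1.89-fold lower in OCP4, with a difference of -0.92 ± 0.09 (adjusted p = 2.01e-06).

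**Figure D1:**
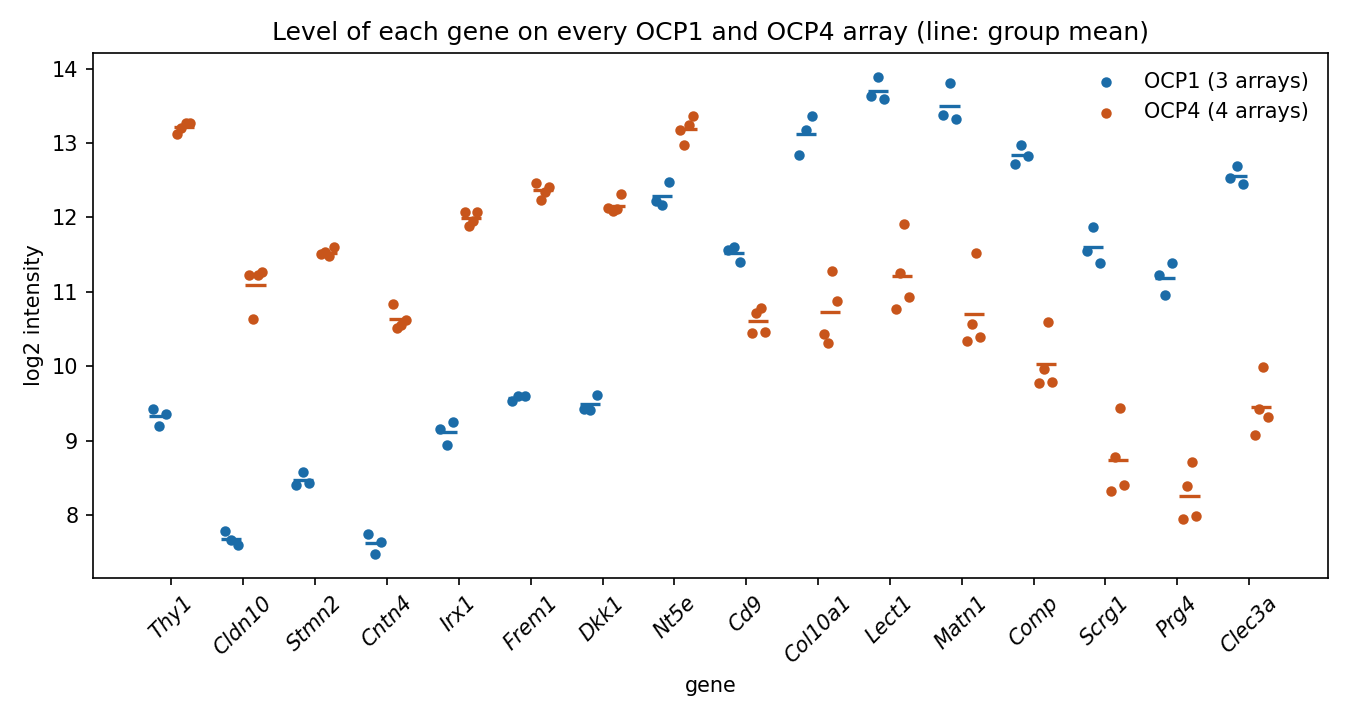
Log2 intensity (y axis) of 16 genes (x axis) on each of the 3 OCP1 and 4 OCP4 arrays; points are arrays and lines are group means. Thy1 sits between 9.20 and 9.42 in OCP1 and between 13.12 and 13.27 in OCP4, and for Comp, Matn1, Scrg1 and Clec3a the OCP4 array nearest to OCP1 is replicate 3.

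Genes of the cartilage list were lower in OCP4. All 24 genes of the list of cartilage matrix and chondrocyte genes passed the test and all were lower, where 12.4% of all genes were. The members were chosen with earlier results of these data known, so this count is a description. Their differences ran from -3.10 to -1.18, with a median of -2.12. Clec3a, which encodes a cartilage C-type lectin, had the largest fall of any gene. It read 12.53, 12.70 and 12.45 in OCP1 and 9.07, 9.43, 9.99 and 9.32 in OCP4. The groups did not overlap, and the difference was -3.10 ± 0.21, or 8.60-fold (adjusted p = 6.84e-08). Comp, which encodes the pentameric cartilage oligomeric matrix protein, read 12.72, 12.97 and 12.82 in OCP1 against 9.77, 9.96, 10.60 and 9.79 in OCP4. This was a fall of 6.99-fold (adjusted p = 9.34e-08), and OCP4 replicate 3 was the highest of its group, as it was for Clec3a. Matn1, encoding a matrilin that links matrix fibres, read 13.38, 13.80 and 13.32 in OCP1 and 10.34, 10.56, 11.52 and 10.39 in OCP4. Its difference was -2.80 ± 0.30 (adjusted p = 6.18e-06), the same array again being the highest of OCP4.

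Genes that define the chondrocyte were lower too. Sox9, the master regulator of the lineage, was 3.77-fold lower in OCP4 (13.01 ± 0.11 in OCP1, n = 3, and 11.10 ± 0.20 in OCP4, n = 4, mean ± SD). Col2a1, the type II collagen gene that Sox9 switches on, was 3.71-fold lower, at 13.55 ± 0.12 against 11.66 ± 0.24. Acan, encoding aggrecan, was 4.66-fold lower. It read 13.75, 13.75 and 13.59 in OCP1 and 11.33, 11.33, 11.95 and 11.30 in OCP4, where replicate 3 stood apart from the other 3 arrays. The log2 differences of Matn3, Ucma, Scrg1 and Lect1 (chondromodulin) were -2.77, -2.65, -2.87 and -2.49. Cytl1, Mia1, Scin and Sorbs2, outside the list, were also among the 15 genes that fell most, with -2.41, -2.33, -2.39 and -2.43. Epyc, a proteoglycan gene, fell by 2.92 on its brighter probe set, but its other probe set gave -0.17 and did not pass.

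The 24 cartilage genes summed to between 136428 and 163825 intensity units on the OCP1 arrays and to 26891, 31518, 44514 and 29403 on OCP4 replicates 1 to 4. Replicate 3 was the highest OCP4 array and still lay far below every OCP1 array. Without it, all 24 genes still passed as lower. In RNA from a bulk sort, fewer cells of a type and less RNA per cell cannot be told apart. The part of chondrocytes within the OCP4 gate in these values was not tested.

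Mir140, the cartilage microRNA gene, was among the 15 genes with the largest falls. It read 8.08, 8.42 and 8.23 in OCP1 and 5.86, 5.89, 6.07 and 5.92 in OCP4, a difference of -2.31 ± 0.18, or 4.95-fold (adjusted p = 2.83e-07). A mature strand of it, miR-140-3p, is given below from RefSeq (GRCm38.p6), at chr8:107551288-107551308 on the plus strand. Its seed, bases 2 to 8, is in capitals. This strand is shown because a seed is what pairs with target transcripts, and no other mature strand of the gene is shown.
mmu-miR-140-3p: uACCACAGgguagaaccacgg
Mir140 lies within the span of Wwp2 (chr8:107436334-107559290), a ubiquitin ligase gene that is itself on the cartilage list. Wwp2 was lower by 1.57 on the log2 scale, from 11.95 ± 0.11 to 10.38 ± 0.30. The array was made to read transcripts, so the precursor and the Wwp2 transcript around it cannot be told apart. No mature strand was measured on its own.

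**Figure D2:**
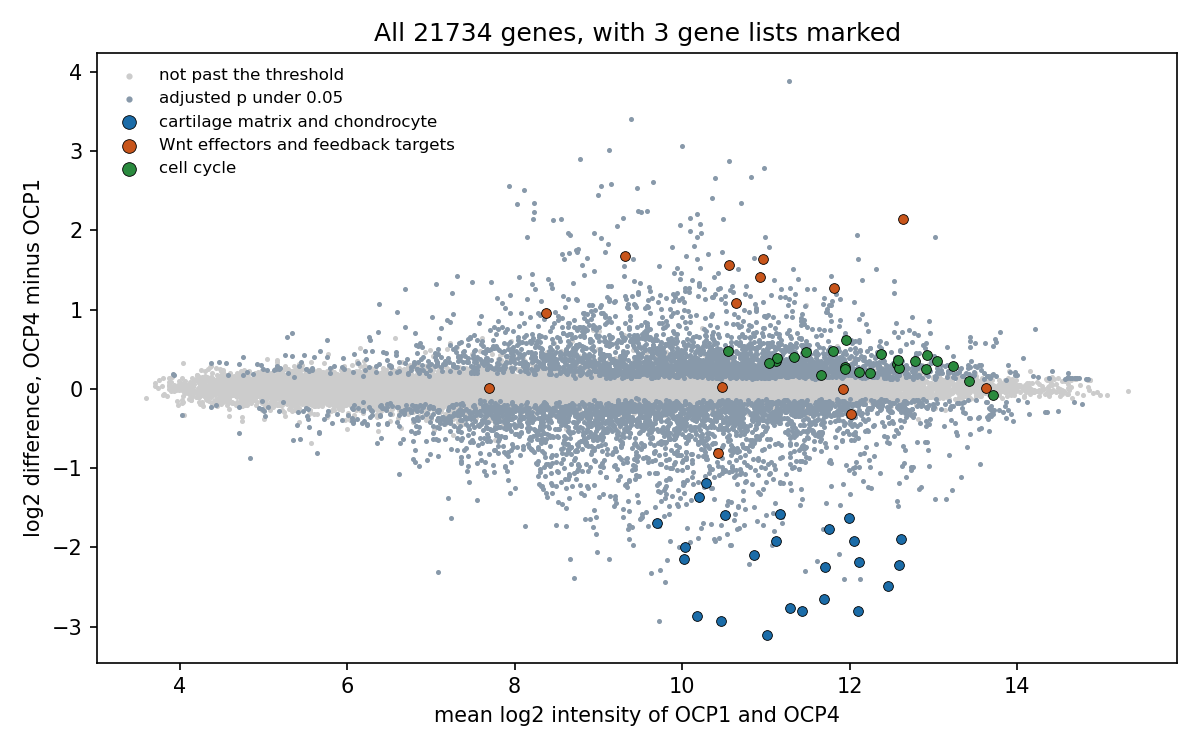
Log2 difference, OCP4 minus OCP1 (y axis), against the mean log2 intensity of the 2 groups (x axis) for 21734 genes, with the genes of 3 lists marked. The 24 cartilage genes all lie at or below -1.18, 8 of the 14 Wnt effector genes are higher in OCP4, and the cell cycle genes sit in a narrow band up to 0.62.

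Genes of hypertrophic cartilage and bone were lower in part. Of 12 hypertrophic chondrocyte genes, 8 were lower and 3 higher in OCP4, against 12.4% and 13.8% of all genes, with a median of -0.80. Col10a1, the collagen made by hypertrophic cells, read 12.83, 13.18 and 13.36 in OCP1 and 10.44, 10.32, 11.28 and 10.87 in OCP4. That was a 5.27-fold fall without overlap (adjusted p = 4.34e-05), with replicate 3 once more the highest of OCP4. Panx3, a channel gene of hypertrophic chondrocytes and osteoblasts, fell by 2.18, and Phospho1, whose phosphatase starts mineral formation, by 1.61. Ihh, the signal sent by prehypertrophic cells, fell by 1.32. Pth1r, encoding the receptor of the parathyroid hormone-related peptide that Ihh induces, went the other way and was 1.92-fold higher, at 11.68 ± 0.05 in OCP1 and 12.62 ± 0.04 in OCP4. Runx3, a factor that promotes hypertrophy, was 1.76-fold higher.

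Of 18 osteoblast and bone matrix genes, 9 were lower, 1 was higher and 8 did not pass. Over all genes 12.4% were lower and 13.8% higher, and the median of the list was -0.30. Spp1, encoding osteopontin, read 12.60, 12.67 and 12.57 in OCP1 and 10.11, 10.28, 10.86 and 10.02 in OCP4, a 4.90-fold fall (adjusted p = 1.21e-07). Smpd3 and Phex, both needed for mineralization in the mouse, fell by 1.99 and 1.63, and Dmp1, a gene of osteocytes, by 1.21. Alpl, encoding the tissue alkaline phosphatase, was 1.50-fold lower. The osteoblast factor Sp7 was 1.36-fold lower, whereas Runx2, which acts before it, differed by 0.18 ± 0.09 and did not pass (adjusted p = 0.161). Col1a1, the main collagen gene of bone and skin, differed by 0.03 ± 0.05 (adjusted p = 0.739).

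Most tendon genes were lower. Of 10 tendon and ligament genes, 9 were lower in OCP4 and none was higher, where 12.4% of all genes were lower and 13.8% higher, and the median was -1.24. Mkx, a homeobox factor of tendon cells, read 11.46, 11.31 and 11.58 in OCP1 and 9.59, 9.40, 10.02 and 9.47 in OCP4. The groups did not overlap, and the fall was 3.56-fold (adjusted p = 2.43e-07). Scx, which specifies tendon progenitors, fell by 1.48, and its target Tnmd by 1.38. Fmod, a proteoglycan gene that guides collagen fibril growth, fell by 1.28. The summed intensity of the list was 98572 to 101111 in OCP1 and 54076 to 60444 in OCP4.

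Of 13 joint interzone and articular genes, 9 were lower and 2 were higher (1 without OCP1 replicate 1), with a median of -0.38. Over all genes 12.4% were lower and 13.8% higher, so the higher members were about as frequent as among all genes. Prg4, encoding the joint lubricant lubricin, read 11.22, 10.95 and 11.39 in OCP1 and 7.94, 8.38, 8.71 and 7.98 in OCP4. It was 7.64-fold lower, with a difference of -2.93 ± 0.18 (adjusted p = 3.55e-08) and no overlap. Gdf5, the growth factor that marks the interzone, was 3.56-fold lower on its brighter probe set, while its other probe set gave -0.81. Barx1, a homeobox gene of joint mesenchyme, fell by 0.93. Wnt4, which is expressed in forming joints and elsewhere, was higher by 0.61.

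**Figure D3:**
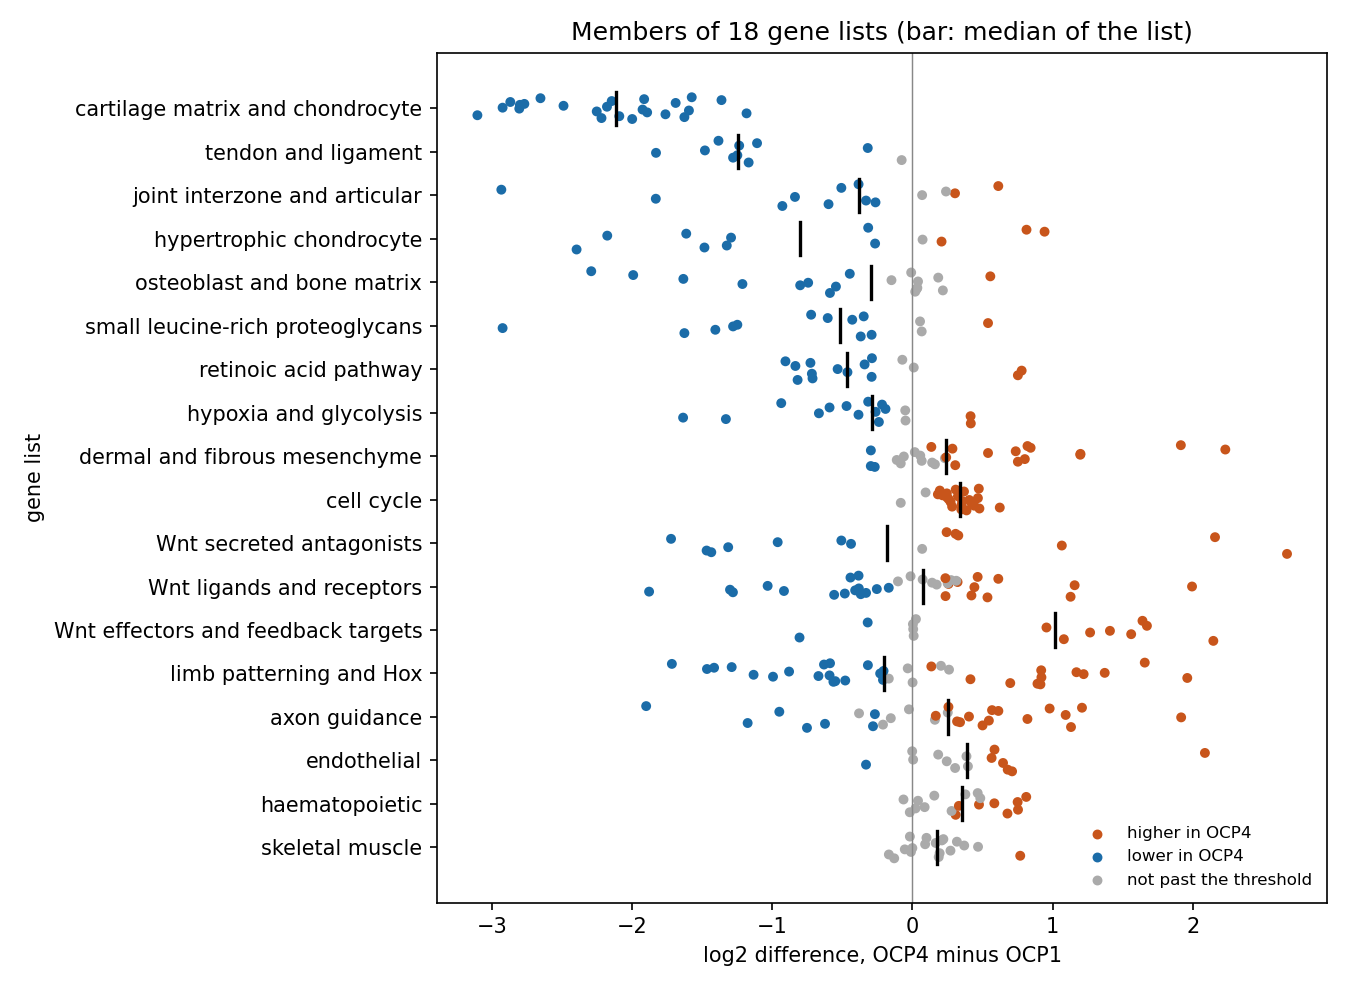
Log2 difference, OCP4 minus OCP1 (x axis), for every member of 18 gene lists (y axis); each point is a gene, coloured by its call, and the bar is the median of the list. The cartilage list lies wholly to the left with a median of -2.12, the Wnt effector list reaches a median of 1.02, and the 2 Wnt lists above it hold members on both sides.

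The genes that rose most in OCP4 were of mixed function. Cldn10, a tight-junction claudin, read 7.78, 7.66 and 7.60 in OCP1 and 11.23, 10.63, 11.23 and 11.26 in OCP4. The groups did not overlap, and the difference was 3.41 ± 0.13, or 10.6-fold (adjusted p = 3.65e-10), with 3.08 on its second probe set. Stmn2, a microtubule regulator best known from neurons, read 8.40, 8.57 and 8.42 in OCP1 and 11.51, 11.53, 11.48 and 11.60 in OCP4, an 8.35-fold difference (adjusted p = 1.40e-10). Cntn4, an adhesion molecule of the contactin family, was 8.06-fold higher. Its arrays read 7.75, 7.47 and 7.63 in OCP1 and 10.84, 10.51, 10.56 and 10.61 in OCP4.

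Irx1, an Iroquois homeobox factor, read 9.16, 8.94 and 9.25 in OCP1 and 12.07, 11.89, 11.96 and 12.07 in OCP4, a 7.36-fold difference (adjusted p = 2.71e-10). Frem1, which encodes a protein of the epithelial basement membrane made by mesenchyme, was 6.89-fold higher. All of its OCP4 arrays lay between 12.24 and 12.46 and all of its OCP1 arrays between 9.53 and 9.60. Pla2g4c (a phospholipase), Lix1, Adh7 (an alcohol and retinol dehydrogenase) and Mmp27 (a matrix metalloproteinase) were 7.50-fold, 6.32-fold, 6.14-fold and 5.69-fold higher. Akr1c18, a steroid-metabolising reductase, was 5.90-fold higher but spread widely, from 8.35 to 10.06 in OCP4. Mup2, Mup11 and Mup7, of the major urinary protein family, also spread widely and differed by 2.58 ± 0.41, 2.56 ± 0.41 and 2.54 ± 0.40 (SE). These are near-identical gene copies whose probes can share signal, so their separate values are uncertain.

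In canonical Wnt signalling, ligands bind Frizzled receptors with Lrp5 or Lrp6, beta-catenin enters the nucleus and joins TCF/LEF factors, and target genes such as Axin2 then feed back to damp the signal. Of 14 Wnt effectors and feedback targets, 8 were higher in OCP4 and 2 lower, against 13.8% and 12.4% of all genes. The median was 1.02. Apcdd1, a membrane inhibitor induced by the pathway, read 11.63, 11.39 and 11.67 in OCP1 and 13.73, 13.59, 13.73 and 13.82 in OCP4, a 4.43-fold difference (adjusted p = 3.09e-10). The nuclear factors Tcf7 and Lef1 were 3.19-fold and 2.95-fold higher. Axin2 was 2.12-fold higher, at 10.10 ± 0.04 in OCP1 and 11.18 ± 0.16 in OCP4. Tnfrsf19, a receptor gene that responds to Wnt, was 3.12-fold higher. Bambi and Tcf7l2 were the lower members, by 0.81 and 0.32.

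Secreted Wnt antagonists split, 6 higher and 7 lower among 14, against 13.8% and 12.4% of all genes, with a median of -0.18. Dkk1, which blocks Lrp5 and Lrp6, read 9.43, 9.41 and 9.62 in OCP1 and 12.12, 12.09, 12.12 and 12.31 in OCP4. All 4 OCP4 arrays lay above all OCP1 arrays, and the difference was 2.67 ± 0.09, or 6.38-fold (adjusted p = 1.40e-10). Kremen1, a co-receptor through which Dkk1 acts, was 2.09-fold higher. Sfrp5, which binds Wnt ligands, was 4.47-fold higher. Its relatives Sfrp4 and Frzb went the other way, 3.30-fold and 2.49-fold lower. Dkk2 and Dkk3 were 2.70-fold and 2.77-fold lower, so members of the same family lay on opposite sides.

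Of 35 Wnt ligands and receptors, 12 were higher and 15 lower, against 13.8% and 12.4% of all genes, with a median of 0.07. The R-spondins, which strengthen Wnt signals, divided: Rspo1 was 3.99-fold and Rspo3 2.23-fold higher, while Rspo2 fell by 1.03. Rspo1 read 9.07, 8.93 and 9.27 in OCP1 and 11.24, 10.91, 11.05 and 11.15 in OCP4. Among Frizzled receptors, Fzd10 was 2.19-fold higher, and Fzd9 and Fzd8 fell by 1.88 and 1.28. The R-spondin receptor gene Lgr6 fell by 1.30.

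Promoters are shown for Dkk1, for its place among the Wnt genes, and for Matn1 and Col10a1, which fell with the cartilage genes. Each is the 250 bases before the RefSeq start (GRCm38.p6), read along the gene's strand: Dkk1 at chr19:30549497-30549746 (minus), Matn1 at chr4:130944135-130944384 (plus) and Col10a1 at chr10:34389731-34389980 (plus). Capitals mark matches, on either strand, to short motifs, and no match overlapped another. The TCF/LEF core was spelled TCAAAG, which reads CTTTGA when seen from the other strand. The SOX core was spelled AACAAT, and its form on the opposite strand is ATTGTT.
Dkk1: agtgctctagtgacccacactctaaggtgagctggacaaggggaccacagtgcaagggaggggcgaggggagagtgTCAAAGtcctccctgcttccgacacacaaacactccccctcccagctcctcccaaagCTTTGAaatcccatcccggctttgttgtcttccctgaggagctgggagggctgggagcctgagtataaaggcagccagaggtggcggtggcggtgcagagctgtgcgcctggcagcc
Matn1: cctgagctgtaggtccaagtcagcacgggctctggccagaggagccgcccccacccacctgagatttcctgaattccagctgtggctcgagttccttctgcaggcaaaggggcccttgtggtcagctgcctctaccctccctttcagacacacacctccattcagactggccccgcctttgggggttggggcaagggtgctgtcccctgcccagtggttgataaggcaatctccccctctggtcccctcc
Col10a1: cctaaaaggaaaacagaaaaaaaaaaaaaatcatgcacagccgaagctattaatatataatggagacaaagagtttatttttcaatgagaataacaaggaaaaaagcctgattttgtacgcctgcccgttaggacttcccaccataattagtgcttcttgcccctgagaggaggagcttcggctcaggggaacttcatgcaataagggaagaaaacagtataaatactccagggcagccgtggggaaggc
The Dkk1 window held the TCF/LEF letters 2 times, at 174 to 169 and at 117 to 112 bases before the start, and the SOX letters 0 times, and the other windows held neither. Of all 32851 promoter windows of this length, 13.8% held the TCF/LEF letters and 9.42% the SOX letters. Of 19 windows of the Wnt effector list, 3 held the TCF/LEF letters. Of 25 windows of the cartilage list, 8 held the TCF/LEF letters and 3 the SOX letters. A match of so few letters describes the sequence and is not a binding site.

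Of 26 dermal and fibrous mesenchyme genes, 14 were higher and 3 lower, with a median of 0.24. Over all genes 13.8% were higher and 12.4% lower, so the lower members were about as frequent as among all genes. Prdm1, a repressor found in dermal cells of hair and skin, read 8.45, 8.30 and 8.41 in OCP1 and 10.37, 10.60, 10.56 and 10.95 in OCP4, a 4.70-fold difference (adjusted p = 8.35e-09). Twist2, the dermal Twist factor (Dermo-1), was 3.77-fold higher, and its arrays read 12.04, 11.92 and 12.20 against 13.96, 13.86, 14.02 and 14.04. Lrig1 and Itga8 were 2.30-fold and 2.29-fold higher, and Crabp1, a retinoic acid carrier of embryonic dermis, 1.69-fold higher. Col14a1, Postn and Col12a1, matrix genes of fibrous tissue, differed by -0.30, -0.30 and -0.27 and were the lower members.

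Of 19 stromal niche and skeletal stem cell surface genes, 5 were higher and 6 lower, against 13.8% and 12.4% of all genes. Lepr and Ly6a (Sca-1), used to mark stromal progenitors in adult mouse marrow, were 1.97-fold and 1.95-fold higher. Vcam1, an adhesion molecule, was 1.84-fold higher. Foxc1, which keeps the marrow niche in the mouse, was 3.34-fold lower, reading 9.77, 9.87 and 9.79 in OCP1 and 7.83, 8.23, 8.42 and 7.79 in OCP4. Ebf3 and Angpt1 fell by 1.19 and 1.11.

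BMP and TGF-beta ligands were mostly lower, 9 of 17, with 4 higher, against 12.4% and 13.8% of all genes. The median was -0.53. Bmp5 was 3.15-fold lower, and Tgfb2 and Tgfb3 fell by 1.03 and 0.99. Inhbb, encoding an activin subunit, had the largest positive difference of the list, 2.08-fold. Among receptors and Smads, 2 of 18 were higher (4 with array weights or with only these 7 arrays in the fit) and 5 lower, and Bmpr1b, a receptor of condensing cartilage, was 2.61-fold lower. Of 21 BMP antagonists and targets, 3 were higher and 11 lower, or 7 without OCP1 replicate 1. In this list and among the receptors and Smads, higher members were about as frequent as among all genes (13.8%). Tgfbi, a TGF-beta-induced matrix gene, was 2.62-fold lower.

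In the FGF pathway, 6 of 20 genes were higher and 7 lower, against 13.8% and 12.4% of all genes. Fgfr3, the receptor that slows growth of cartilage, was 3.40-fold lower, and Fgf18, a ligand of that receptor, 2.33-fold lower. Dusp6, a phosphatase induced by FGF signalling, was 1.63-fold higher. In the hedgehog pathway, 5 of 14 genes were higher and 4 lower, or 2 without OCP1 replicate 1. The response genes Gli1 and Ptch1 were higher by 0.91 and 0.84, while the ligand gene Ihh fell.

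In the Notch pathway, 7 of 14 genes were higher and 1 lower, against 13.8% and 12.4% of all genes. Hey2, a nuclear target of Notch, read 8.19, 8.17 and 8.23 in OCP1 and 10.02, 10.00, 10.04 and 10.04 in OCP4. Its arrays lay close together within each group, and it was 3.55-fold higher (adjusted p = 1.31e-11). Heyl and Hey1, of the same family, were higher by 1.15 and 0.94, and the ligand gene Dll1 by 0.95. Endothelium also uses Notch, and of 14 endothelial genes 6 were higher in OCP4 and 1 lower (2 higher without OCP1 replicate 3), and their part in these values was not tested.

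Of 12 IGF pathway genes, 8 were lower and 1 was higher, against 12.4% and 13.8% of all genes. Igfbp7 was 2.16-fold lower, and Igf1, the growth factor, fell by 0.77. Pappa2, a protease that frees IGF from its binding proteins, was 2.62-fold higher on its brightest probe set. Of 15 retinoic acid genes, 11 were lower and 2 higher, the higher ones about as frequent as among all genes. Rbp4, the retinol carrier, fell by 0.91, and the receptor gene Rarb by 0.83. Cyp26b1, whose enzyme degrades retinoic acid, and Crabp1 were the higher members, by 0.78 and 0.75.

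Patterning factors of the limb split by family member. Of 35 genes, 12 were higher and 18 lower, against 13.8% and 12.4% of all genes, with a median of -0.21. Tbx4 and Pitx1, hindlimb factors, were 3.29-fold and 2.76-fold lower. Tbx4 read 11.86, 11.80 and 11.80 in OCP1 and 10.05, 9.96, 10.42 and 9.98 in OCP4. Six2 fell by 1.29. Hoxc8 was 3.90-fold higher, Zic1 3.16-fold and Hoxd8 higher by 1.22. Irx3, a relative of Irx1, was 2.59-fold higher on its brighter probe set, while its other probe set gave 0.38.

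Of 14 genes of small leucine-rich proteoglycans, 11 were lower and 1 was higher, against 12.4% and 13.8% of all genes. The median was -0.52. Epyc and Chad, counted among the cartilage genes too, and Fmod and Kera, counted among the tendon genes too, were lower members. Chad, encoding chondroadherin, was 3.09-fold lower, and Ecm2 fell by 1.41. Lum, encoding lumican, was the higher member, by 0.54. Fibrillar and other collagens, a list with no member of the cartilage list, divided, with 6 of 24 higher and 7 lower. Col7a1, the anchoring collagen of skin, was 2.01-fold higher, and Col8a2 fell by 1.00. Of 24 matrix proteases and inhibitors, 9 were higher and 10 lower. Mmp19 was 3.78-fold higher, reading 9.04, 9.19 and 9.43 in OCP1 and 11.12, 11.16, 11.07 and 11.20 in OCP4. Mmp13, the collagenase of hypertrophic cartilage and bone, was 2.45-fold lower.

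Cell cycle genes were higher by small amounts. Of 24 genes, 22 were higher in OCP4 and none lower (1 lower when the probe sets of a gene were averaged), where 13.8% of all genes were higher, and the median was 0.34. The largest difference was that of Bub1, a spindle checkpoint kinase, at 0.62, from 11.65 ± 0.12 to 12.27 ± 0.13. Birc5 (survivin) was higher by 0.48 and Mki67, the proliferation marker, by 0.25 (adjusted p = 0.00787). Red cell and haematopoietic markers also rose in part (given below), and their share in these values was not tested.

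Of 16 hypoxia and glycolysis genes, 12 were lower and 2 higher (1 without OCP1 replicate 2), against 12.4% and 13.8% of all genes. The median was -0.29. Car9, a carbonic anhydrase induced by low oxygen, was 3.11-fold lower, reading 9.69, 9.62 and 9.67 in OCP1 and 7.94, 7.93, 8.25 and 7.98 in OCP4. Bnip3, a mitophagy gene, and Slc2a1, the glucose transporter, fell by 1.33 and 0.94. Cartilage genes fell on the same arrays, and their part in this was not tested.

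Genes of the adenosine handling list, which holds enzymes, adenosine receptors and a nucleoside transporter, went in both directions. On it 4 of 12 were higher and 3 lower, against 13.8% and 12.4% of all genes. Besides Nt5e, the ectonucleotidase gene Entpd1 (CD39), whose product acts before CD73, was 2.42-fold higher, at 9.37, 9.71 and 9.26 in OCP1 and 10.67, 10.81, 10.80 and 10.61 in OCP4. Enpp1, which makes pyrophosphate from ATP, was 4.22-fold lower, at 13.00, 12.92 and 12.82 against 10.52, 10.88, 11.21 and 10.74.

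Markers of other cell types were higher in part. The median difference was 0.39 for the endothelial, 0.37 for the erythroid and 0.35 for the haematopoietic list, against 0.01 over all genes. Over all genes 13.8% passed as higher and 12.4% as lower. Of 14 endothelial genes, 6 were higher and 1 lower, or 2 higher without OCP1 replicate 3, and Erg, the lower member, lost its call in 8 of the alternatives tried. The list summed to 10743 to 12068 intensity units in OCP1 and 14376 to 17368 in OCP4. Sox18, a vascular factor also found in hair follicle dermis, was 4.25-fold higher, while Cdh5 and Pecam1, which define endothelium, were 1.64-fold and 1.48-fold higher; the Pecam1 call was lost in 1 alternative. Of 18 haematopoietic genes, 8 were higher and none lower, or 4 without OCP1 replicate 3 or without OCP4 replicate 2 and 5 without OCP1 replicate 1 or OCP4 replicate 4. They summed to 5617 to 6400 in OCP1 and 6795 to 8830 in OCP4, and Ptprc, the leukocyte antigen CD45, differed by 0.16 and did not pass (adjusted p = 0.205). The macrophage gene Lyz2 was 1.76-fold higher.

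Of 11 erythroid genes, 5 were higher and 1 lower, but only 2 were higher without OCP1 replicate 1, OCP1 replicate 3 or OCP4 replicate 3, and 3 without OCP4 replicate 2. Their summed intensity was 18706 to 31603 in OCP1 and 31550 to 40624 in OCP4, so the groups overlapped at their edges. Of 18 skeletal muscle genes, Chrna1 was higher and the other 17 did not pass, and their sums overlapped, at 10674 to 15129 and 11520 to 16488. Of 12 Schwann and nerve genes, S100b and Egr2 were lower, by 1.10 and 0.75, and 10 did not pass (1 was higher without OCP1 replicate 2), while the list summed to 11345 to 12399 in OCP1 and 10024 to 11756 in OCP4. S100b is also expressed in cartilage. Among 10 pericyte and smooth muscle genes 3 were higher, Rgs5 most at 0.96, and 2 lower (1 without OCP1 replicate 2, without OCP4 replicate 4 or with only these 7 arrays), with overlapping sums of 17799 to 22949 and 15807 to 20528. Among 11 keratinocyte genes none passed (2 were higher with only these 7 arrays in the fit and 1 without OCP2 replicate 3), and their sums overlapped, at 3598 to 4571 and 3629 to 6051. Of 9 osteoclast genes, 3 were higher and 2 lower, or 1 lower in 13 alternatives, with sums of 10797 to 11467 and 11270 to 12024. Of 8 adipocyte genes, 2 were higher and 1 lower, with sums of 8663 to 12016 and 10358 to 12531. The shares over all genes were 13.8% higher and 12.4% lower.

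The same contrast of Thy1+ against Thy1- could be set beside that in CD73- cells, OCP3 minus OCP2, which shares no array with it. Both contrasts used the same estimate of each gene's spread, so their calls were not independent. Of all genes, 26.3% had passed in CD73+ cells. In CD73- cells 3502 genes (16.1%) passed. Of these, 1890 also passed in CD73+ cells, which was 54.0% of the calls in CD73- cells and 33.1% of those in CD73+ cells, and 1448 had the same direction and 442 the opposite. The difference between the 2 contrasts, tested as an interaction in the same model, passed for 3915 genes (18%). Of the 510 genes that were at least 2-fold apart in CD73+ cells, 425 (83.3%) had such an interaction, a share that the choice of genes by 1 side of the interaction itself favours.

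Most cartilage genes were lower with Thy1 in CD73- cells too: 22 of 24 passed as lower there and none as higher, with a median of -1.39. Chad differed by 0.02 there, against -1.63 in CD73+ cells, and 12 of the 24 members had an interaction. Matn1 differed by -2.80 in CD73+ and -2.84 in CD73- cells. Comp differed by -2.81 in CD73+ and -1.84 in CD73- cells (interaction adjusted p = 0.0244). Prg4 differed by -2.93 and -1.26 (interaction adjusted p = 0.000345). Thy1 itself differed by 3.89 and 3.00.

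An interaction was found for 11 of the 15 genes that rose most in CD73+ cells and for 6 of the 15 that fell most. These genes were picked for a large difference in CD73+ cells, which is 1 side of the interaction, so the counts and their direction are a description. Cldn10 differed by 0.16 in CD73- cells (interaction 3.25, adjusted p = 5.83e-08), Stmn2 by 0.35 and Frem1 by -0.05. Mup2, Mup11 and Mup7 differed by 2.14, 2.09 and 2.22 in CD73- cells and had no interaction past the threshold. Dkk1 was 1.57-fold higher in CD73- cells against 6.38-fold in CD73+ cells (interaction 2.03, adjusted p = 1.39e-07). Hey2 differed by 1.83 in CD73+ and 1.74 in CD73- cells and Lepr by 0.98 and 0.89. Neither interaction passed (adjusted p = 0.433 and 0.675), which does not show that the contrasts were equal.

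Bone genes ran in opposite directions. Mmp13 fell by 1.29 with Thy1 in CD73+ cells and was higher by 2.90 in CD73- cells, the most negative interaction among the genes called in CD73+ cells (-4.19, adjusted p = 3.53e-08). Spp1 differed by -2.29 and 0.78, Ostn, encoding the secreted peptide osteocrin, by -0.86 and 2.20, and Tnn, a tenascin of the periosteum and bone surface, by -1.48 and 1.46. Omd, encoding osteomodulin, differed by -0.60 and 2.29. Alpl and Sp7 did likewise, with -0.59 against 1.97 and -0.45 against 1.67. Runx2, which did not pass in CD73+ cells, was higher by 1.54 in CD73- cells (interaction adjusted p = 5.04e-06).

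**Figure D4:**
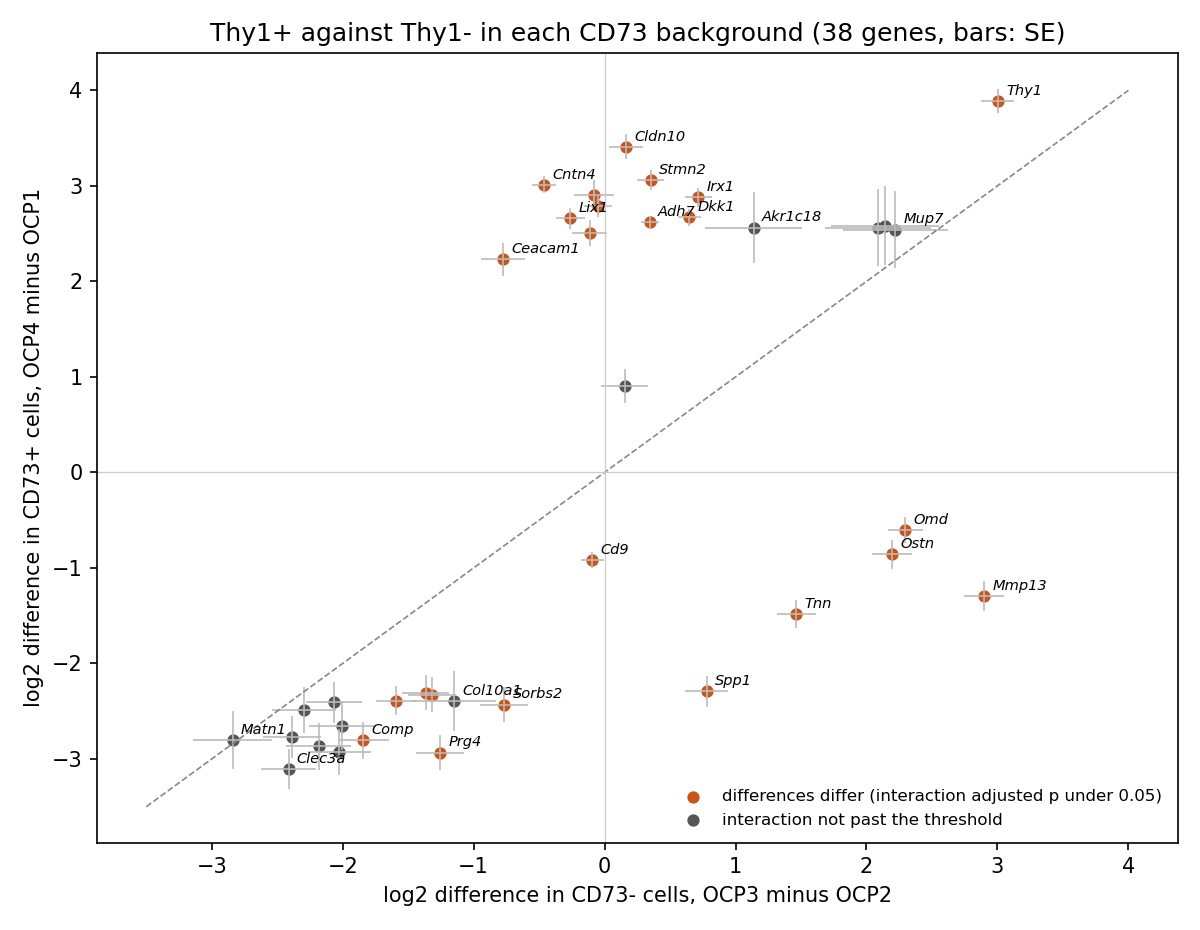
Log2 difference of Thy1+ minus Thy1- cells in the CD73- background (x axis, OCP3 minus OCP2) and in the CD73+ background (y axis, OCP4 minus OCP1) for 38 genes, with SE bars and a dashed line of equal differences. Cldn10, Stmn2, Cntn4 and Dkk1 lie far above the line, Matn1 lies on it at about -2.80, and Mmp13, Spp1, Ostn, Tnn and Omd lie in the lower right, where the 2 directions are opposite.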

How the data were processed

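RNA of sorted limb cells was read on 14 arrays (OCP1 3, OCP2 3, OCP3 4, OCP4 4), each giving 35556 probe sets. The submitters' processing notes name RMA and limma, with no versions or order. The authors' deposited value table holds 1 linear intensity per probe set and array (array medians 328.1 to 346.8). The authors' deposited comparison table gives log2 differences, adjusted p-values and gene symbols. Its log2 differences ran as OCP4 minus the other group and matched those computed here (largest gap 4.53e-08). Log2 of each intensity was taken here. Of the probe sets, 25228 carried a usable symbol. The brightest probe set of each of 21734 symbols was kept, and 18706 of these are current RefSeq symbols.

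A model with 1 mean for each group over the 14 arrays was fitted with limma 3.58.1 (R 4.3.3), with Benjamini-Hochberg adjustment over all genes and a threshold of 0.05. The fit was tested on simulated data. For these 2 groups 5987 probe sets passed in the authors' deposited comparison, as many as the same fit gave here on all probe sets. Genes to name were drawn from 235 that met a rule: the 6 sort and marker genes, the 15 genes with the largest non-overlapping difference in each direction, up to 4 called members per list and direction and the 5 largest interactions in each direction. Not all 235 are named. Acan, Col2a1, Sox9, Wwp2, Runx2, Sp7, Col1a1, Axin2, Pecam1, Ptprc and Mki67 lie outside that rule and were added after their values were seen. Members and gene lists were chosen with earlier results of these data known, so no list was tested as a set. The labels give no batch and no scan data were used, so no batch could be fitted. The number of arrays limits the precision. Whether the replicate numbers pair the samples could not be decided (closing section), and the main fit did not use them.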

Additional observations from a re-analysis of the deposited data

Results flagged for a closer look

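In 15 of 246 named genes, 1 OCP4 array stood apart from the other 3, by a gap whose share of the group's range passed Dixon's 95% critical value. Chance alone does this in about 1 in 20 groups. Replicate 3 was the high array for Acan (gap 0.940 of the range), Car9 (0.835), Epyc (0.838), Sorbs2 (0.945) and Tnn (0.844), all genes lower in OCP4, and it was the low array for Gli2 (0.836) and Osr1 (0.963). Without that array all 24 cartilage genes still passed as lower. Replicate 2 was the low array for Cldn10 (0.951), Dmp1 (0.873), Efna5 (0.926) and Lix1 (0.854). Replicate 4 was the high array for Col14a1 (0.843) and Dkk1 (0.856) and the low array for Gli1 (0.918), and replicate 1 was the high array for Itga8 (0.838). The cause of these gaps was not tested.

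The difference between Thy1+ and Thy1- cells itself differed between CD73+ and CD73- cells for 24 of the 38 sort, marker and leading genes (interaction, limma adjusted p under 0.05), against 18% of all genes. The 38 were chosen partly for the size of this interaction and partly for a large difference in CD73+ cells, so the count is a description and supports nothing. The interaction, in log2 units, was positive for Cntn4 (3.48), Cldn10 (3.25), Ceacam1 (3.01), Pla2g4c (2.99), Lix1 (2.92), Frem1 (2.84), Stmn2 (2.71), Mmp27 (2.62), Adh7 (2.27), Irx1 (2.17), Dkk1 (2.03) and Thy1 (0.89). It was negative for Mmp13 (-4.19), Spp1 (-3.07), Ostn (-3.05), Tnn (-2.95) and Omd (-2.90), genes of bone and its surface. It was also negative for Prg4 (-1.68), Sorbs2 (-1.67), Mia1 (-1.01), Comp (-0.96), Mir140 (-0.94), Cd9 (-0.82) and Scin (-0.80), which were lower in OCP4. Of the other 208 named genes, 156 had an interaction past the threshold.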

How the results depend on the processing

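The counts of genes called, higher, lower and at least 2-fold apart kept their size within 1.5 times under all 23 alternatives, and the count with an interaction did so under the 22 that could give it, since a fit of only the OCP1 and OCP4 arrays has none. Leaving out each array in turn gave 4371 to 5901 genes called (lowest without OCP1 replicate 1), 2229 to 3154 higher, 2142 to 2760 lower, 479 to 557 at least 2-fold apart and 3012 to 4218 with an interaction. The other alternatives gave 5265 to 6441 calls, and 3223 genes were higher and 2511 lower once arrays were centred by median. Same-numbered OCP1 and OCP4 arrays correlated at -0.136, 0.260 and -0.122 in their deviations from the group means. The best match of OCP1 replicates 1 to 3 was OCP4 replicate 4, 2 and 1, so the numbers matched for replicate 2 only. So few arrays cannot decide whether the replicate numbers pair the samples. With the replicate number as a block, 5265 genes were called and 3690 had an interaction. Of 246 named genes, 228 stayed on the same side of the threshold in every alternative that kept them, 18 lost their call in at least 1, and no called gene changed direction. Those 18 were Acp5, Adm, Alas2, Cd53, Cdon, Cldn5, Cnn1, Erg, Esam, Gli3, Hba-a1, Hbb-b1, Mef2c, Mmp9, Notch3, Osr1, Pecam1 and Sost. None of the 30 genes with the largest differences was among them. Dim probe sets limit what could be seen: leaving out the dimmest 25% of genes gave 5908 calls among 16300.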

Other observations

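Axon guidance genes, which also act in blood vessels and mesenchyme, were higher in OCP4 in 15 of 28 cases and lower in 7, against 13.8% and 12.4% of all genes, with a median of 0.25. Plxna4, a semaphorin receptor subunit, read 10.19, 9.87 and 10.04 in OCP1 and 12.05, 11.73, 11.88 and 12.14 in OCP4, a 3.78-fold difference (adjusted p = 8.84e-08). The repellent Slit3 and its receptor Robo2 were both higher, by 1.21 and 1.09, and the ephrin gene Efna5 by 1.13. Unc5c, a netrin receptor, went the other way and was 3.73-fold lower, at 11.60, 11.31 and 11.07 in OCP1 and 9.26, 9.16, 9.88 and 9.41 in OCP4. Epha7 and Sema3e fell by 1.18 and 0.95.

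Of 20 elastic fibre and microfibril genes, 2 were higher and 8 lower, against 13.8% and 12.4% of all genes. Efemp1 (fibulin-3) was 2.60-fold higher. Ltbp3, which holds latent TGF-beta in the matrix, fell by 0.85, and its relative Ltbp2 fell by 0.69. Of 11 interferon response genes, Ifit2 and Ifit3 were 2.92-fold and 2.12-fold higher and the other 9 did not pass. That count is close to the share of all genes that were higher, and the list median was -0.0004. Ifit2 read 8.90, 8.83 and 9.12 in OCP1 and 10.60, 10.58, 10.35 and 10.45 in OCP4. Of 15 immediate early and dissociation stress genes, 1 was higher (Hspa1a, by 0.52) and 4 were lower, Egr2 and Socs3 most, by 0.75 and 0.65. Their summed intensity overlapped between the groups, at 115538 to 129218 in OCP1 and 112596 to 127948 in OCP4.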
